A study of Homo sapiens with 2 samples.

Results

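The solute carrier genes described here are those whose symbol has the form SLC, family number, A, member number, and that held 10 or more reads summed over all transcript models and both libraries. By this rule 137 genes were members, of 192 genes with such a symbol and at least 1 read and of 16645 annotated genes with a read. Members were thus chosen by their symbol and their summed read count, and the levels below are a description with no test. The RNA came from GM12878, an Epstein-Barr virus-transformed human B-lymphoblastoid line. The 2 libraries, replicates 1 and 2, form 1 group with no treatment named in the labels, and native RNA was sequenced on nanopores (direct RNA kit SQK-RNA002, flow cell FLO-MIN106D). Nothing in the labels says that they came from separate cultures, so the spread between them may be technical. All statements on cells concern this 1 line grown in culture.

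Solute carriers are membrane proteins that move small molecules (amino acids, sugars, nucleosides, vitamins, metals and ions) across membranes, either along a gradient or coupled to an ion. They are numbered in families by sequence. The plasma membrane families feed a dividing cell with glutamine, leucine and glucose and remove lactate. Most members of the SLC25 family sit in the inner mitochondrial membrane and exchange ATP, phosphate and metabolites with the cytosol. Several carriers work in pairs, such as SLC3A2, the heavy chain that brings SLC7A5 and its relatives to the cell surface.

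The abundant members belong to families of similar sequence, and the first coding part of the 3 ADP/ATP carriers that were read shows how far they can be told apart. Lines run 5′ to 3′ from the start codon, in GENCODE release 29 (GRCh38), and capitals mark the 32 of 111 positions at which the 3 genes do not all share a base. The 3 parts lie at chr4:185143373-185143483 (plus strand), chrX:119468516-119468626 (plus) and chrX:1391899-1392009 (minus).
SLC25A4: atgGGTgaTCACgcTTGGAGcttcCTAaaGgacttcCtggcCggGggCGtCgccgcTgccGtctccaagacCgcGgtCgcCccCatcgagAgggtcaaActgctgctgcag
SLC25A5: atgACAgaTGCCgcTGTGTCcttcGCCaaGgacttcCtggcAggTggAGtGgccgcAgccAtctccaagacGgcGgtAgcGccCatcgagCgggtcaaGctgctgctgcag
SLC25A6: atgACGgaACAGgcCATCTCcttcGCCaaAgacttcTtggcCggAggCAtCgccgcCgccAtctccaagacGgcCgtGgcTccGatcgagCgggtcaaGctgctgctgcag

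Over the whole coding sequence of 894 bases without the stop codon, SLC25A5 and SLC25A6 were identical at 78.7% of positions, SLC25A4 and SLC25A6 at 77.9%, and SLC25A4 and SLC25A5 at 77.2%. The longest run shared by any pair was 29 bases. No pseudogene with a symbol of this form, such as SLC25A5P, held a read in either library.

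Library and cell identity were checked first. Replicate 1 held 1360368 reads and replicate 2 held 1510998, so that 1 read was worth 0.735 and 0.662 CPM (counts scaled to a total of 1000000 per library). Each direct RNA read comes from 1 RNA molecule, so CPM is not divided by transcript length when genes are compared. The B cell markers MS4A1, CD79A, CD79B, CD74 and PAX5 were all read in both libraries, from 43.0 CPM for PAX5 to 7927 CPM for CD74. GATA1, HBG1, ALB, EPCAM and LYZ held 0 reads (a level of 2.21 and of 1.99 CPM is the most that a count of 0 allows). CD3E held 5 and 16 reads and COL1A1 2 and 3.

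As a group the 137 genes received 9083 reads in replicate 1, 0.668% of the library (95% Wilson interval 0.654 to 0.682%), and 10399 reads in replicate 2, 0.688% (0.675 to 0.702%). The mean was 0.678% ± 0.0145 (SD, n = 2). The intervals cover counting error only. The median member had 18.5 CPM, beside 22.1 CPM for all 10634 annotated genes with at least 10 reads, and members ranged from 3.38 to 1326 CPM. Under 50 reads were held by 65 members and 100 or more by 42, so the values of many members rest on few reads. At the lower edge of the rule, SLC16A11 and SLC4A7 entered with 10 reads each. SLC16A14, SLC16A9, SLC22A5, SLC25A43, SLC46A1 and SLC48A1 stayed out with 9 reads each.

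Members of SLC25, the mitochondrial carrier family, held most of the solute carrier reads. The 36 SLC25 members took 5278 reads in replicate 1 and 5873 in replicate 2, 58.1% and 56.5% of all member reads, with a summed level of 3883 CPM ± 4.95 (SD, n = 2). Just 3 of them accounted for 41.0% and 41.2% of all member reads. The median SLC25 member, at 21.4 CPM, was close to the median of all members.

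SLC25A6 (ENSG00000169100.13, chromosome X, 1386152 to 1392724, minus strand), an ADP/ATP carrier that exports ATP from the mitochondrion, had 1738 and 2076 reads, or 1326 CPM ± 68.1 (SD, n = 2). SLC25A3 (ENSG00000075415.12, chromosome 12, 98593591 to 98606379, plus strand), the mitochondrial phosphate carrier, had 957 and 1173 reads, or 740 CPM ± 51.5. SLC25A5 (ENSG00000005022.5, chromosome X, 119468400 to 119471319, plus strand), another ADP/ATP carrier, had 1030 and 1038 reads, or 722 CPM ± 49.6. SLC25A3 and SLC25A5 did not differ beyond their spread, and they changed order between the libraries, whereas SLC25A6 was the highest in both. The isoform known from heart and skeletal muscle, SLC25A4 (chromosome 4, 185143241 to 185150382), had 105 and 89 reads, or 68.0 CPM ± 12.9. SLC25A31, the testis form, held 0 reads in both libraries. The order of the ADP/ATP carriers was thus SLC25A6, SLC25A5, SLC25A4 in each library, and neighbouring levels did not overlap.

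Below these, the SLC25 members followed at much lower levels. SLC25A39, which is required for mitochondrial glutathione import, had 325 and 287 reads (214 CPM ± 34.6). The oxoglutarate/malate carrier SLC25A11 had 157 and 169 reads (114 CPM ± 2.52), and the citrate carrier SLC25A1 had 131 and 190 reads (111 CPM ± 20.8). These last 2 levels were within their spread of each other. SLC25A23, an ATP-Mg/phosphate carrier, had 104 and 137 reads (83.6 CPM ± 10.05). SLC25A10, the dicarboxylate carrier, had 69 and 63 reads. The other SLC25 members ranged down to SLC25A24, an ATP-Mg/phosphate carrier, with 3 and 8 reads.

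**Figure D1:**
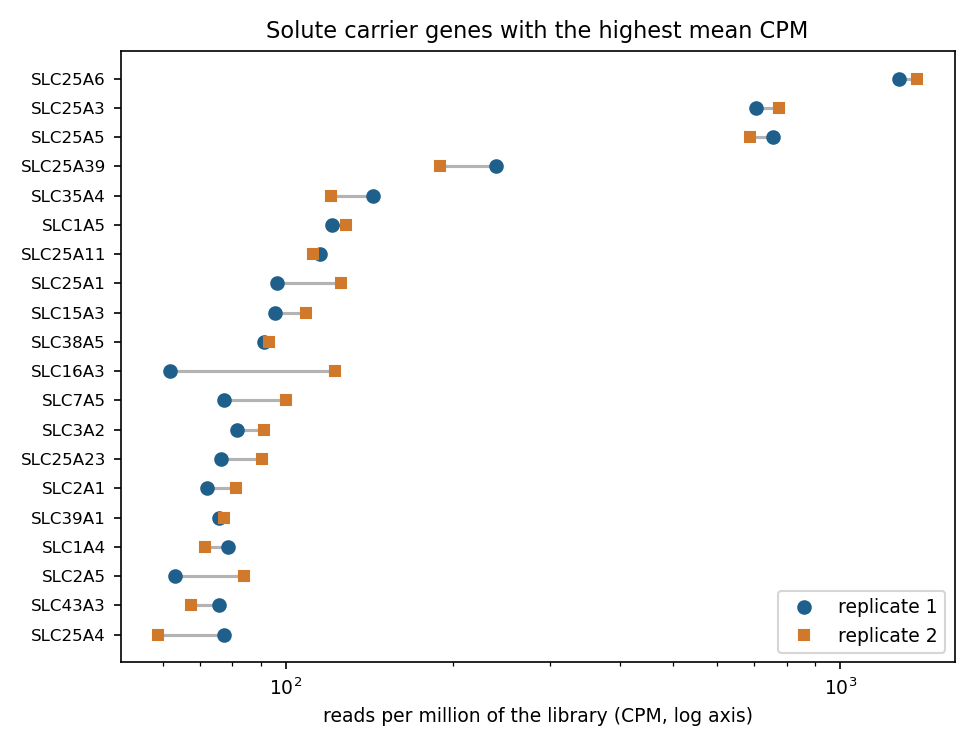
The 20 solute carrier genes with the highest mean level, 1 gene per line, with CPM on a log axis. Circles are replicate 1, squares replicate 2 and the grey line joins them. SLC25A6, SLC25A3 and SLC25A5 stand apart with means of 722 CPM or more, and SLC16A3 has the widest gap on the log axis between libraries of the genes shown.

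Amino acid transporter families formed the next class, with 21 members and 847 CPM ± 10.03 (SD, n = 2) in sum. SLC1A5, a glutamine and neutral amino acid exchanger, was the highest of them, with 165 and 194 reads (125 CPM ± 5.02). SLC38A5, a glutamine transporter, had 124 and 141 reads (92.2 CPM ± 1.53), and SLC1A4, an alanine, serine and cysteine transporter, had 107 and 108 (75.1 CPM ± 5.08). The leucine transporter SLC7A5 had 105 and 151 reads (88.6 CPM ± 16.1) and its heavy chain SLC3A2 had 111 and 138 (86.5 CPM ± 6.88). The levels of this pair were within their spread of each other. Other light chains that join SLC3A2 were lower, with 37 and 44 reads for SLC7A7, 26 and 33 for SLC7A6, 4 and 2 for the cystine transporter SLC7A11 and 0 and 1 for SLC7A8. SLC43A3, counted in this class by its family number although it is known as a purine nucleobase transporter, had 103 and 102 reads (71.6 CPM ± 5.81).

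Among sugar carriers, the glucose transporter SLC2A1 had 98 and 123 reads (76.7 CPM ± 6.62). The fructose transporter SLC2A5 had 86 and 127 (73.6 CPM ± 14.7), a level within its spread of SLC2A1. The glucose transporters of other tissues SLC2A2, SLC2A4 and SLC5A1 held 0 reads in both libraries. The other sugar class members went from SLC50A1, with 72 and 73 reads (50.6 CPM ± 3.26), down to SLC45A4, with 6 and 7.

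The SLC16 family, named for monocarboxylate transport, had 5 members, of which SLC16A3 and SLC16A1 are known as lactate carriers. SLC16A3 (also called MCT4, known for lactate export; chromosome 17, 82228397 to 82261129, plus strand) had 84 reads in replicate 1 and 185 in replicate 2 (92.1 CPM ± 42.9). SLC16A1 (MCT1) had 61 and 95 reads (53.9 CPM ± 12.8). SLC16A3 was above SLC16A1 in both libraries, but the difference of their means was smaller than the SD of SLC16A3. BSG, the chaperone that takes both to the plasma membrane, was at 282 CPM ± 2.69.

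Metal transporters numbered 19, with 482 CPM ± 11.04 (SD, n = 2) in sum. Zinc importers of the SLC39 family led, with 103 and 117 reads for SLC39A1 (76.6 CPM ± 1.21) and 83 and 88 for SLC39A3 (59.6 CPM ± 1.96). SLC39A7, which releases zinc from the endoplasmic reticulum, had 70 and 59. The SLC30 family of zinc transporters was led by SLC30A9 with 45 and 54. The copper importer SLC31A1 had 30 and 34 reads, and the iron transporter SLC11A2 had 4 and 7.

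The remaining classes were led by single genes. SLC35A4, of the nucleotide sugar transporter family, had 195 and 182 reads (132 CPM ± 16.2) and had rank 5 among members. SLC15A3, a lysosomal peptide and histidine transporter, had 130 and 164 (102 CPM ± 9.17). SLC29A1, the equilibrative nucleoside transporter, had 89 and 104 (67.1 CPM ± 2.41), against 12 reads over both libraries for SLC29A2 and 17 for SLC29A3. SLC12A8 led the cation-chloride family with 81 and 83 reads, and the multivitamin transporter SLC5A6 had 75 and 69. The riboflavin transporter SLC52A2 had 64 and 62 reads, SLC4A2, an anion exchanger, 57 and 45, and the sodium/proton exchanger SLC9A7 48 and 62. SLC20A1, a phosphate importer, had 37 and 57, SLC27A5, of the fatty acid transport family, 31 and 61, and SLC10A3 23 and 24. By family number, 38 families had a member, and 13 of these had a single member.

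**Figure D2:**
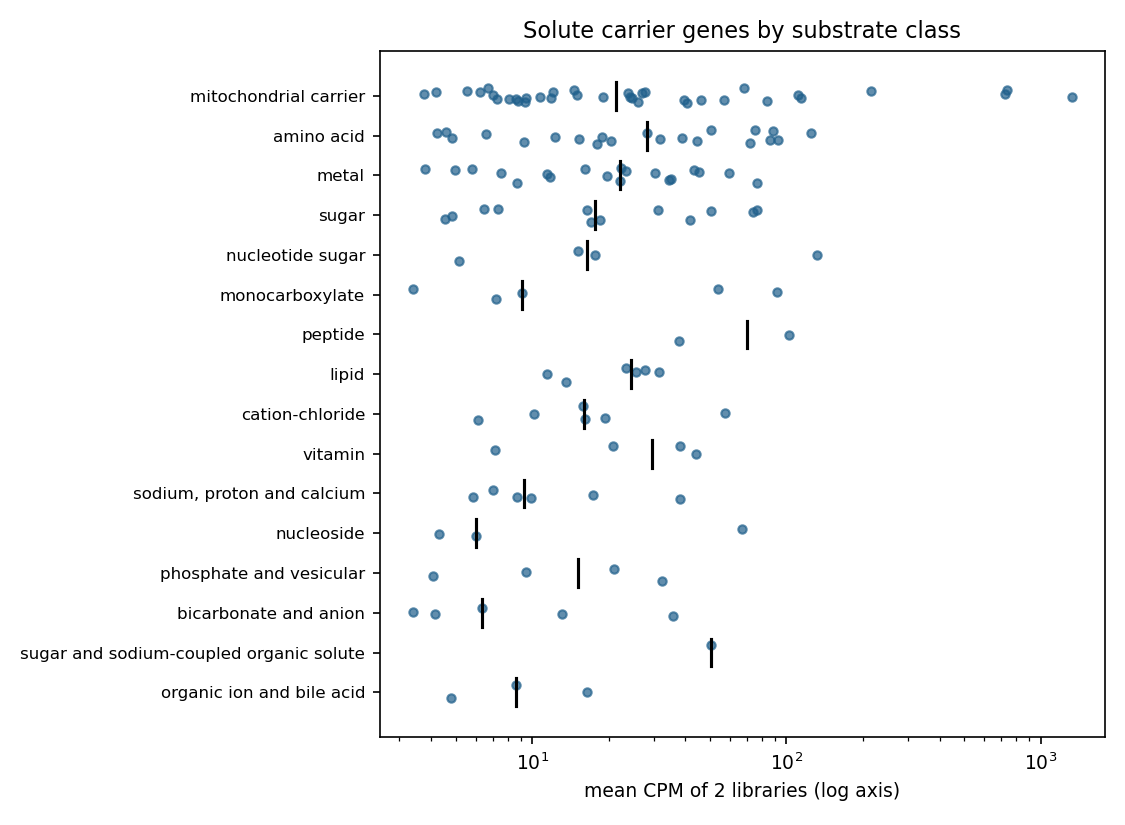
Mean level of each of the 137 solute carrier genes (points, CPM over 2 libraries, log axis) by substrate class, with classes ordered by summed level and the median of each class as a black bar. Mitochondrial carriers hold the 3 highest points, yet their median of 21.4 CPM lies within the range of the other class medians.

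Transporters that lack a symbol of this form were read from a fixed list. All 20 listed partners and carriers had 10 or more reads. UCP2, a mitochondrial carrier, was at 192 CPM ± 13.8 (SD, n = 2), and the pyruvate carrier subunits MPC1 and MPC2 at 61.4 CPM ± 7.76 and 75.9 CPM ± 0.278. Among the listed mitochondrial import factors, TOMM20 and TIMM10 were the highest, at 221 CPM ± 31.4 and 144 CPM ± 29.4. TIMM9 and TOMM70 were lower, at 62.9 CPM ± 3.71 and 46.5 CPM ± 14.3. TIMM29 and TIMM22, which serve carrier insertion into the inner membrane, were lower still, at 32.4 CPM ± 0.0599 and 28.1 CPM ± 6.02. Of the 26 genes with SLC35B to F, SLC9B, SLC9C, SLC51 or SLCO symbols and a read, 17 had 10 or more reads, and SLC35C2 was the highest with 96 and 89. Antisense genes named after SLC symbols held 16 and 30 reads over 6 genes. SLC9A3-AS1, with 6 and 9 reads, is named after a gene that is not a member.

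How far the 2 libraries gave the same level was tested by a binomial test (exact, two-sided) on the reads of each gene, given the library totals, with Benjamini-Hochberg adjustment over 10634 genes. This sets library against library, since there is no second condition. Of the 137 members, 1 passed an adjusted p of 0.05 (0.730%), beside 5.05% of all genes tested (2.72% higher and 2.33% lower in replicate 2). That gene was SLC16A3, higher in replicate 2 by 0.98 on the log2 scale (exact binomial, adjusted p = 8.03e-06). An unadjusted p under 0.05 was reached by 19 members, and the share over all genes at that cut-off was not computed. The median log2 ratio of replicate 2 to replicate 1 was 0.06 for members and 0.01 for all genes tested, and members ranged from -1.59 to 1.63. Of the 42 members with 100 or more reads, 41 lay within a log2 ratio of 0.5. The like share over all genes of that depth was not computed. In the partner list 0 genes were higher and 1, MTCH2, lower in replicate 2 (by a log2 difference of -0.44; exact binomial, adjusted p = 0.0453), and the median log2 ratio was -0.04.

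The higher count of SLC16A3 in replicate 2 was spread over several models. SLC16A3-214, a known model of 5 exons, had 34 and 52 reads. A genomic model of 1 exon had 18 and 65, and a model of 2 exons that keeps the 3′ end had 10 and 38. With known models alone the log2 ratio against the library totals was 0.51, and the call was lost (exact binomial, adjusted p = 0.176). The median of all genes tested in that setting was -0.55. Scaled to known reads, an alternative added after seeing the data, the ratio of SLC16A3 was 0.79 and the call stayed (exact binomial, adjusted p = 0.0372). Exons of SLC16A3 overlap the microRNA gene MIR6787 on the same strand.

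The categories of the models say how completely the reads matched the annotation. Known models match an annotated transcript, and incomplete splice matches (ISM) match part of it. ISM models of 1 exon, which hold no junction, had 23.2% and 25.8% of the ISM reads of members. Over all genes with at least 10 reads they had 15.1% and 17.2%. NIC and NNC models hold new combinations of known splice sites or new splice sites. Genomic models overlap a gene without matching its splicing, and here 99.9% and 99.6% of the genomic reads of members were in models of 1 exon. Known models held 4537 of 9083 member reads in replicate 1, 49.95% (48.9 to 50.98%), and 3626 of 10399 in replicate 2, 34.9% (33.96 to 35.8%). The mean was 42.4% ± 10.7 (SD, n = 2). Over all genes with at least 10 reads the shares were 56.6% and 46.5%. The genomic share was 17.5% and 24.7% in members and 10.8% and 15.2% over all genes. The ISM share was 23.1% and 34.9% in members, beside 24.1% and 32.4%.

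These sums are dominated by the 3 largest genes. Without SLC25A3, SLC25A5 and SLC25A6, known models held 33.4% and 20.7% of the reads of the other 134 members, and genomic models 27.7% and 37.4%. With both libraries summed, the median member had 12.0% of its reads in known models and 41.7% in genomic models, against medians of 18.5% and 16.1% over all genes with at least 10 reads. Genomic models took more than 50% of the reads in 60 members (43.8%), beside 27.7% of all genes. Whether this differs from other genes of like structure was not tested.

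**Figure D3:**
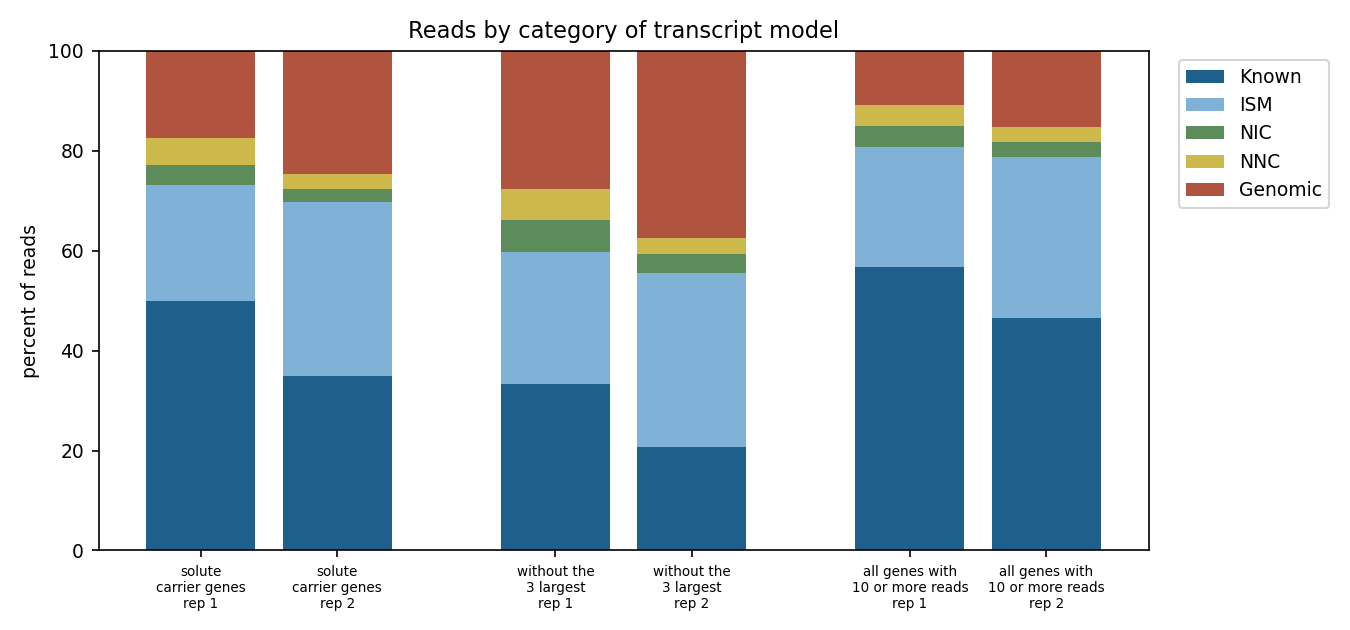
Share of reads in each category of transcript model (stacked bars, percent of the reads of the set) in replicates 1 and 2, for the 137 solute carrier genes, for the same without SLC25A3, SLC25A5 and SLC25A6, and for all genes with 10 or more reads. In each set the known share is smaller and the genomic share larger in replicate 2.

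The model with the most reads was genomic in 85 members, known in 27 and ISM in 25, and it was NIC or NNC in 0. Over all 10634 genes, genomic models led in 39.7% and known models in 37.4%, beside 62.0% and 19.7% of members. Of the 72 members with 50 or more reads, 32 had a genomic model at the top. They included SLC35A4, SLC7A5, SLC25A23, SLC2A1, SLC39A1, SLC12A8, SLC16A1, SLC50A1, SLC38A1, SLC5A6, SLC38A10, SLC39A9, SLC2A6, SLC25A17, SLC38A2, SLC19A1, SLC9A7, SLC15A4, SLC39A8, SLC7A1, SLC44A2, SLC44A1, SLC25A12, SLC25A20, SLC17A9, SLC23A2, SLC7A6, SLC30A5, SLC12A4, SLC43A1 and SLC35A2. The lengths given for some of these genomic models cannot be those of a transcript. For SLC39A8 the length was 1 base (33 and 41 reads), for SLC38A10 5 bases (18 and 28) and for SLC43A1 3 bases (3 and 14). A genomic model at the top is thus a category of reads and need not be a transcript of 1 exon.

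Some well-known transporters had most of their reads in models of 1 exon. SLC38A2, a sodium-coupled neutral amino acid transporter, had 60 and 51 reads, of which 59 and 51 were in models of 1 exon and 1 in a known model. The choline transporter SLC44A1 had 31 and 43 reads, with 31 and 42 in models of 1 exon. For SLC16A1 the numbers were 56 of 61 and 88 of 95. SLC7A5 had 69 and 126 reads in its leading genomic model and 20 and 7 in SLC7A5-201, the known model of 10 exons. The folate carrier SLC19A1 had 50 and 60 reads and 0 in known models, with 44.0% and 71.7% of them in models of 1 exon. Over all members, models of 1 exon held 23.2% of reads in replicate 1 (22.4 to 24.1%) and 34.3% in replicate 2 (33.3 to 35.2%), and the median member had 54.3%, beside 40.9% for all genes.

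Members differed in the length of the last annotated exon, and the genomic share followed it. In the 15 members whose longest last exon was at most 500 bases, the median genomic share was 2.94%. It was 16.6% in 22 members between 501 and 1000 bases, 46.8% in 38 members between 1001 and 2000 bases, and 69.6% in 62 members above 2000 bases. The known share went from 27.2% and 29.1% in the 2 shorter bins to 13.6% and 4.87% in the longer ones. Across the 137 members Spearman's rho between last exon length and genomic share was 0.59 and Pearson's r with log2 length 0.58; across 9557 genes with a value these were 0.53 and 0.52. All points share the same libraries, and genes are not independent replicates. Genomic models carry no positions here, so whether their reads lie in the last exon was not tested. Over all genes the medians of the genomic share in the same bins were 0.780%, 5.88%, 26.7% and 52.6%, so members stood above all genes in each bin. The median longest last exon was 1830 bases for members and 1560 bases over all genes.

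Some members departed from this pattern. SLC39A14, a zinc and iron importer, had 0 genomic reads although 61 of its 67 reads were in models of 1 exon, and its leading ISM model of 1 exon had 26 and 35 reads. SLC30A9 likewise had 38 of 45 and 47 of 54 reads in models of 1 exon, mostly of the ISM category. For SLC25A3 the longest last exon of 5012 bases belongs to SLC25A3-203, a model with 9 and 10 reads only, and its genomic share was 0.469%.

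**Figure D4:**
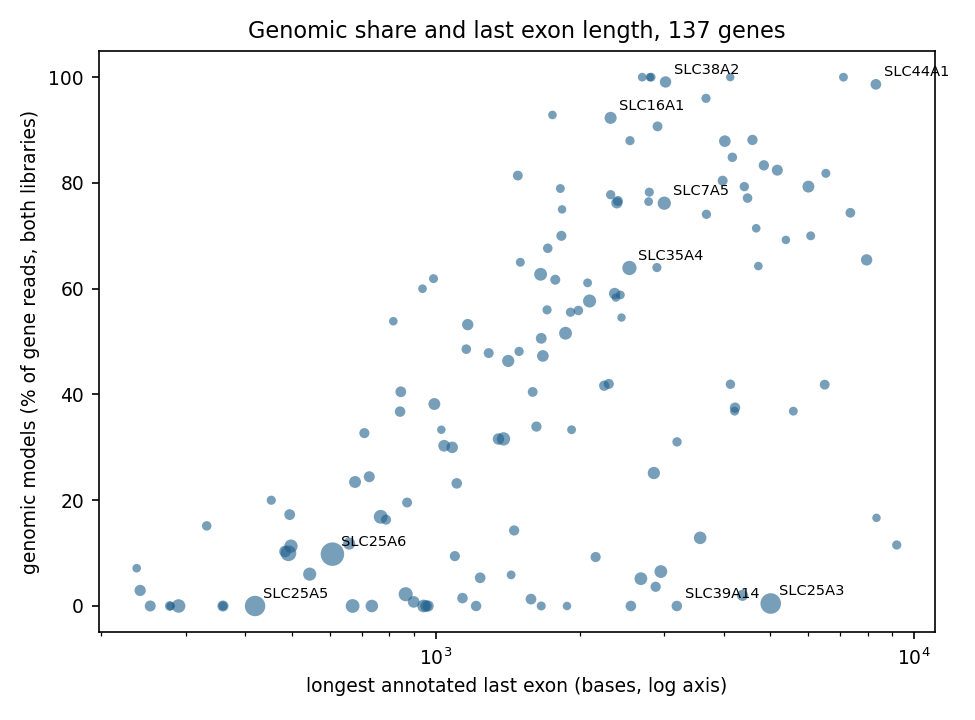
Genomic share of reads (percent of the reads of a gene, both libraries) against the longest annotated last exon of a protein-coding transcript (bases, log axis) for the 137 members; the area of a point grows with the number of reads. The 15 genes with last exons of at most 500 bases lie between 0 and 20%, and SLC38A2, SLC44A1 and SLC16A1 lie above 90%.

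The known share was then compared between the libraries for each gene with 10 or more reads in each, with Fisher's exact test and adjustment over 8265 genes. Of 103 members tested, 20 passed an adjusted p of 0.05 (19.4%), beside 20.1% of all genes tested, a share near the background. All 20 were lower in replicate 2 (background 19.9% lower and 0.230% higher). The share was lower in 80 of the 103 members, higher in 13 and equal in 10, with a median difference of -9.33 percentage points beside -7.51 over all genes. Replicate 2 also had more reads in ISM and genomic models over the whole table, and the part of this in the gene results was not tested.

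In SLC25A6 known models held 1335 of 1738 reads, 76.8% (74.8 to 78.7%), in replicate 1 and 1149 of 2076, 55.3% (53.2 to 57.5%), in replicate 2 (Fisher's exact test, adjusted p = 5.97e-42). In SLC25A5 the shares were 73.9% and 57.8% (Fisher's exact test, adjusted p = 7.63e-13) and in SLC25A3 68.1% and 52.1% (Fisher's exact test, adjusted p = 3.54e-12). For all 3 the Wilson intervals of the libraries did not overlap. SLC35A4 had 101 of 195 reads, 51.8%, in replicate 1 and 33 of 182, 18.1%, in replicate 2 (Fisher's exact test, adjusted p = 3.05e-10), while its genomic model of 1 exon had 93 and 148 reads. SLC25A11 had 77.1% and 52.1% (Fisher's exact test, adjusted p = 6.10e-05). The largest difference among those past the threshold was in the UDP-galactose transporter SLC35A2, with 18 of 30 reads and 3 of 20 reads in known models.

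The category that was larger in replicate 2 was not the same in each gene. In SLC2A1 the known share was 35.7% and 13.0% and the genomic share 34.7% and 65.04%, with the ISM share at 25.5% and 20.3%. In SLC1A5 the known share was 36.97% and 17.5% and the ISM share 47.3% and 74.7%, with a genomic share of 2.42% and 2.06%. SLC2A5 and SLC1A4 resembled SLC1A5, with ISM shares of 40.7% and 71.7%, and of 55.1% and 81.5%. SLC7A5 and SLC25A23 resembled SLC2A1, with genomic shares of 65.7% and 83.4%, and of 42.3% and 69.3%. When only known and ISM reads were counted, 13 of 64 members passed, beside 25.9% of all genes, and SLC38A5 was among them (53.2% and 24.1%; Fisher's exact test, adjusted p = 0.00330). SLC7A5, SLC25A38, SLC2A1 and SLC25A4 no longer passed, with differences of -24.2, -24.5, -19.3 and -17.9 percentage points. SLC25A11, SLC39A3 and SLC35A4 no longer passed either, with smaller differences of -9.998, -10.4 and -2.94 points, and SLC35A2 held too few such reads to be tested.

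**Figure D5:**
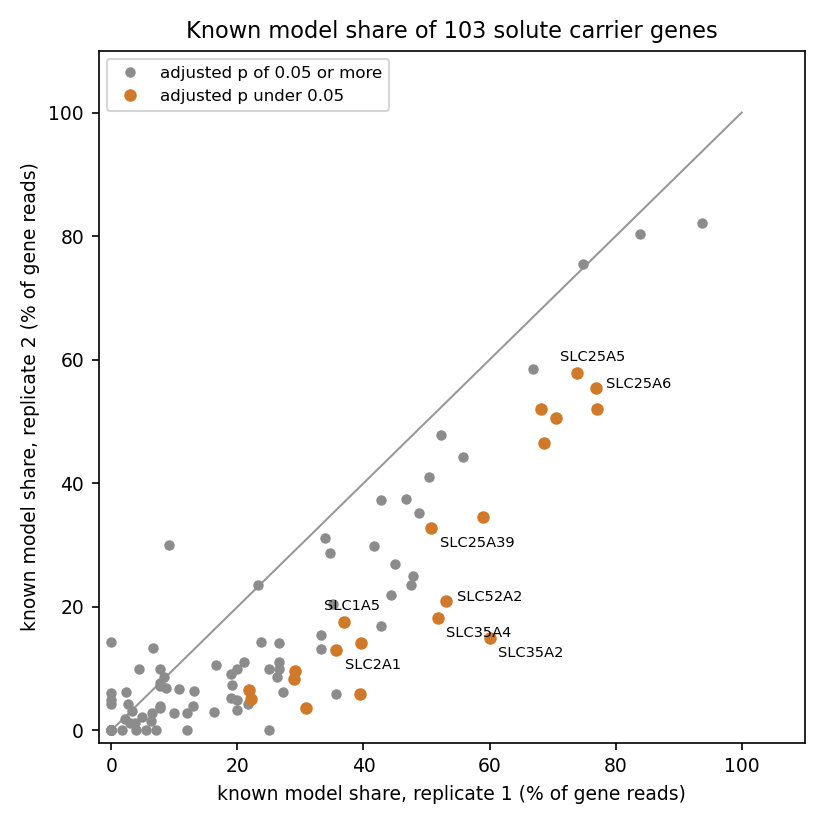
Share of the reads of a gene in known models in replicate 1 (x axis) and replicate 2 (y axis), in percent, for the 103 members with 10 or more reads in each library. The line marks equal shares; the 20 coloured genes with an adjusted p under 0.05 (Fisher's exact test) all lie below it.

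The structure of SLC25A3 shows what full reads add. This gene holds a pair of alternative coding exons that are used in place of each other. The upstream exon, often called 3A, is known from heart and skeletal muscle, and the downstream exon, 3B, is used in most tissues. Both sequences are shown 5′ to 3′ from GENCODE release 29 (GRCh38, plus strand), and capitals mark positions that differ in a global alignment. The upper one lies at chr12:98595433-98595557 and the lower one at chr12:98595727-98595848.
Upstream exon of 125 bases: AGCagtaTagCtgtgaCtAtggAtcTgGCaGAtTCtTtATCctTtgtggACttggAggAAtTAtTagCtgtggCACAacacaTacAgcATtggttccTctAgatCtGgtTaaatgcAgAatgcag
Downstream exon of 122 bases: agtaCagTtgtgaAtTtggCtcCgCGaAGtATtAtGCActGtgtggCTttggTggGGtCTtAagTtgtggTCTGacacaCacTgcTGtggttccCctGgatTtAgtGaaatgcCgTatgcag

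The exons were identical at 81 of 125 aligned positions (64.8%), so reads that cross them can be told apart. Known models with the downstream exon had 597 reads in replicate 1 and 458 in replicate 2, led by SLC25A3-217 (8 exons, 464 and 348 reads) and SLC25A3-201 (7 exons, 121 and 96 reads). All 4 annotated models with the upstream exon had 0 reads in both libraries. Set against the reads of the downstream exon, the same upper limit of 3 reads was 0.503% in replicate 1 and 0.655% in replicate 2. ISM, NIC and NNC models were left out here, because the table gives no positions for them. SLC25A3 also overlaps the small nucleolar RNA gene SNORA53 on the same strand.

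Use of models within a gene was compared through the known model with the most reads, in genes with 20 or more known reads in each library and 2 or more known models. Of 19 members tested, 3 passed (15.8%), beside 12.5% of 1878 genes (1.44% higher and 11.0% lower in replicate 2; Fisher's exact test, adjusted p under 0.05). In SLC25A5, SLC25A5-201 held 97.0% of 761 known reads and 89.7% of 600 (Fisher's exact test, adjusted p = 1.09e-06), while SLC25A5-203, a processed transcript of 433 bases, had 23 and 62 reads. In SLC25A3, SLC25A3-217 held 71.2% of 652 and 56.96% of 611 (Fisher's exact test, adjusted p = 4.63e-06). Its short retained intron models SLC25A3-210 and SLC25A3-207 had 36 and 87, and 19 and 66 reads.

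The largest difference, and the only one of the 3 with a higher share in replicate 2, was in SLC43A3 (chromosome 11, 57406954 to 57427580, minus strand). SLC43A3-226 held 31 of 77 known reads, 40.3%, in replicate 1 and 64 of 77, 83.1%, in replicate 2 (Fisher's exact test, adjusted p = 2.03e-06). This is a model of 1 exon of the GENCODE type TEC (awaiting experimental evidence), at chr11:57406954-57408749. It takes in the last exon of the coding model SLC43A3-203 (chr11:57406956-57407896), which itself had 30 and 10 reads. The known share of SLC43A3 was 77 of 103 and 77 of 102 reads, although fewer of those reads were in spliced models. Exons of SLC43A3 also overlap the gene AP000781.2 on the same strand. SLC50A1 and SLC38A5 had the next smallest p, with 60.0% and 23.8%, and 84.8% and 55.0%, in their leading known models, and did not pass (Fisher's exact test, adjusted p = 0.115 and 0.142).

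A known match need not carry the whole protein. Counted here are known models of the protein-coding type with an annotated start and stop codon, so decay models are left out. They held 4256 member reads in replicate 1, 46.9% of all member reads (45.8 to 47.9%), and 3115 in replicate 2, 29.95% (29.1 to 30.8%). For all protein-coding genes with 10 or more reads the shares were 49.7% and 38.2%. Such reads were found in both libraries for 74 of the 137 members, and in neither for 38. These 2 counts were not computed over all genes. No read in any known model was held by 24 members, beside 1722 of the 10634 genes with at least 10 reads. SLC25A6 had all 2484 known reads in its coding model of 4 exons. SLC39A4, a zinc importer, had 76 known reads and 0 with a complete reading frame, since its leading model SLC39A4-209 is a processed transcript of 668 bases. Short coding models with a start and stop codon are counted too, so these reads need not carry the longest protein of a gene. In SLC27A5, 25 and 39 such reads were in SLC27A5-204, a coding model of 3 exons and 643 bases.

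SLC15A3 combined a coding and a decay form at like levels. The coding model SLC15A3-201 (8 exons) had 41 and 32 reads, and SLC15A3-207 (7 exons), annotated as subject to nonsense-mediated decay, had 37 and 32. The share of SLC15A3-201 did not differ past the threshold between the libraries (47.1% of 87 and 33.3% of 96 known reads, Fisher's exact test, adjusted p = 0.280). SLC2A6, a sugar transporter, held 0 known reads, and a NIC model of 10 exons had 23 and 6 of its 60 and 60 reads. Members had a median of 12 models, from 1 to 122 (SLC25A3), and 60.7% of the 2374 models of members had a single read.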

How the data were processed

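The values analysed are raw counts of reads per transcript model, which the authors deposited with a column for each library. The name of the table shows that TALON assigned the reads, and the submitters' processing notes name minimap2 and hg38; versions, annotation release and read filters are not given in the sources used here. The number of exons and the length of each model are other columns deposited by the authors. All 23533 known models matched GENCODE release 29 in identifier, exon number and length, so positions and transcript types were taken from there.

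Per the labels' protocols, libraries were made from depleted RNA, with reverse transcription to open secondary structure. Gene counts are sums over models. Exact binomial and Fisher's exact tests (SciPy 1.17.1) ran over all annotated genes that passed each minimum, with Benjamini-Hochberg adjustment (called under 0.05). Both were also run on simulated counts that held counting error only, with changes planted only in genes of high count. That run cannot speak to other spread between libraries or to genes with few reads. Log2 ratios had 0.5 reads added. Scaling alternatives came from edgeR 4.0.16 (TMM) and DESeq2 1.42.0. Intervals are Wilson 95%.

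Members and lists were chosen with earlier results of these data known. Named are the 20 highest members, the highest of each class, those past the threshold between libraries, the 5 smallest p of each share test, members of 50 or more reads led by a NIC, NNC or genomic model, and fixed pairs; others were chosen after their values were seen. A few genes that this choice covers are not reported here. Exons of 20 members overlap those of another gene on the same strand, so their reads may be shared.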

Additional observations from a re-analysis of the deposited data

How the results depend on the processing

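No paired analysis was possible because the 2 libraries form 1 group. Leaving out a library gives the value of the other. In replicates 1 and 2 the share of reads was 0.668 and 0.688% and the known share 49.95 and 34.9%. The single member that differed between the libraries, SLC16A3, stayed the single call under 3 other scalings and 2 other minimum counts. Members called numbered 19 of 47 with known models only (0 higher, 19 lower), where 30.4% of all genes were called and their median was -0.55 on the log2 scale. Without genomic models they were 3 of 99 (1 higher, 2 lower), beside 9.44% of all genes. With each scaled to its own totals, alternatives added after seeing the data, they were 11 (2 higher, 9 lower; median of all genes -0.26), beside 18.8%, and 3 (2 higher, 1 lower), beside 8.26%. SLC16A3 was lost only with known models against the library totals. For the known share, 13 of 64 members were called among known and ISM reads, beside 25.9% of all genes. For the top model, 18 of 52 were called when ISM, NIC and NNC models were included, beside 29.97% of all genes. The share of reads was 0.560% in known models and 0.399% without SLC25A3, SLC25A5 and SLC25A6. The known share was 53.4% without genomic models, 11.7% as the mean of the median over members in each library, and 27.1% without those 3 genes. Both values without the 3 genes were added after seeing the data. With known reads only, 47 members reached 10 reads. Of the 74 values of single called genes under the alternatives, 65 stayed past the threshold in the same direction, 9 lost the threshold and 0 reversed. Depth limits the 65 members with under 50 reads.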
